A study of Mus musculus with 12 samples.

Results

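The T cell receptor beta chain is assembled from gene segments of 1 locus. The segments were taken as the rows of the gene count table with a symbol beginning Trbv, Trbd, Trbj or Trbc. There were 53 such rows among 48663 gene rows: 35 variable (V), 2 diversity (D), 14 joining (J) and 2 constant (C) segments, all on mouse chromosome 6. The libraries came from C57BL/6 mice in which the gene for LRF (Zbtb7a, a zinc finger transcription factor) is flanked by loxP sites (lrf fl/fl). KO mice also carried Cd4 Cre, which is active in developing T cells and so acts in all T cells of the alpha-beta lineage, and control mice (Cre-negative) carried the same floxed alleles. The 4 groups, with 3 libraries each, were CD8αα cells from the spleen of KO mice (KO spleen), CD8αα intraepithelial lymphocytes of control mice, for which the labels name no organ (control IEL), thymic precursors of such lymphocytes from KO mice (KO IELp), and the same precursors from control mice (control IELp). IELp had been sorted as TCRβ+ CD4- CD8α- CD5hi CD122+ H-2Kb+ CD44- PD-1hi cells and CD8αα cells as CD45+ TCRβ+ CD4- CD8α+ CD8β- cells, 40000 cells per sample. KO IEL and control splenic CD8αα cells were not analysed here, so tissue and genotype differ together between the CD8αα groups. Because every sort used the TCRβ protein, the summed level of these transcripts was not independent of the sort.

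Each developing T cell joins 1 V, 1 D and 1 J segment at the beta locus by V(D)J recombination, with the RAG enzymes cutting the DNA, and splices the joined exon to Trbc1 or Trbc2. The junction encodes the third complementarity-determining region (CDR3), which together with the loops of the V segment contacts peptide and MHC. In bulk RNA the share of each V segment therefore reflects how many cells use it and how much transcript each holds, and the number of cells and the transcript per cell cannot be told apart. CD8αα IEL precursors are known to be selected in the thymus by strong self-reactive signals, and the settled IEL compartment is known for large clones.

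The segment sequences show what tells the segments apart in short reads. The first set holds the last 60 bases of 7 V exons that the results turn on, 3 of them close copies of one another, on the plus strand of GRCm38 (mm10) with GENCODE M21 exon ends. The capitals mark the codon of the conserved cysteine at which CDR3 begins.
Trbv16, chr6:41152171-41152230: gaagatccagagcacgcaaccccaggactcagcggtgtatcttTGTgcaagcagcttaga
Trbv2, chr6:41047936-41047995: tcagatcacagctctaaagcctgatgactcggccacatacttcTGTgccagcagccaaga
Trbv12-2, chr6:41119305-41119364: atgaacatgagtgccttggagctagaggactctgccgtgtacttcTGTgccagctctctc
Trbv13-1, chr6:41116409-41116468: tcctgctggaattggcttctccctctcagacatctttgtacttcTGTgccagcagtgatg
Trbv13-2, chr6:41121773-41121832: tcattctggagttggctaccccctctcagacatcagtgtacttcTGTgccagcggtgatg
Trbv13-3, chr6:41130526-41130585: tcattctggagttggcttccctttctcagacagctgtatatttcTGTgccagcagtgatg
Trbv14, chr6:41135557-41135616: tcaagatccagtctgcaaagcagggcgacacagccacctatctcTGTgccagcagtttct

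The D segments and a J segment of each cluster are shown because they bear on the use of the first or second D-J-C cluster. In the J segments the capitals mark the phenylalanine and glycine codons that close CDR3, and the D segments are printed whole with no part marked.
Trbd1, chr6:41533201-41533212: gggacagggggc
Trbd2, chr6:41542163-41542176: gggactgggggggc
Trbj1-1, chr6:41533864-41533911: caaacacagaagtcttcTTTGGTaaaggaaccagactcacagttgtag
Trbj2-1, chr6:41542754-41542803: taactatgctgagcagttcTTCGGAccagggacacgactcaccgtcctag

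The 3 Trbv13 segments are close copies. Over the 240 bases that end with the cysteine codon, Trbv13-1 and Trbv13-2 were 87.1% identical, Trbv13-1 and Trbv13-3 were 84.2% identical, and Trbv13-2 and Trbv13-3 were 91.2% identical. Trbv12-1 and Trbv12-2 shared 87.5% of these bases, while Trbv13-2 and Trbv16 shared 34.2%. No stretch of 76 bases, the read length, was shared between any of these V segments and another annotated transcript. Shared stretches were found for Trbv4, Trbv5 and Trbv8, where 69.8%, 75.4% and 100% of 76-base windows recurred in other transcripts, so their counts are uncertain. Between the constant segments, 34.4% of Trbc1 windows and 37.4% of Trbc2 windows were shared, so reads from that part could not be assigned to either. Mouse V segments are also known by older names: Trbv16 is Vβ11, Trbv12-2 and Trbv12-1 are the Vβ5 segments, the Trbv13 segments are the Vβ8 family, Trbv14 is Vβ13 and Trbv2 is Vβ4.

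Each library held 13432598 to 19947734 gene counts, of which 4928 to 10961 lay on V segments. Zbtb7a averaged 61.3 ± 2.13 CPM (gene counts scaled to 1000000 per library) in KO spleen, against 111 ± 8.91 CPM in control IEL, and 45.5 ± 4.66 CPM in KO IELp, against 75.4 ± 6.27 CPM in control IELp (SD, n = 3 each). The transcript was lower in every KO library than in every control library of its pair but not lost, and which exons the Cre deletes is not given in the labels. Cd8a averaged 838 CPM in KO spleen, 2508 CPM in control IEL, 46.5 CPM in KO IELp and 18.7 CPM in control IELp, high in the groups sorted as CD8α+. No label states that each replicate is its own animal, and the p-values cover the spread among these 12 libraries only, which may be technical. Fold changes were fitted with edgeR after scaling for library composition and need not equal the ratio of the CPM means. A call is an adjusted p under 0.05, corrected over all genes tested. Of the 3 sort genes Cd8a, Cd8b1 and Cd4, 2 were called higher and 1 lower in KO spleen than in control IEL. Their median log2 fold change was 3.51, and 29.1% of all genes were called higher and 29.2% lower. The sort genes thus differed in both directions between the groups sorted as CD8αα cells.

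Of the 35 V segments, 27 had at least 1 count and 8 had none in any library. The 8 at 0, Trbv7, Trbv8, Trbv9, Trbv10, Trbv11, Trbv18, Trbv27 and Trbv28, are all annotated as pseudogenes, and a count of 0 allows a share of up to 0.0274% to 0.0609% of V counts, depending on the library. For Trbv8, all of whose 76-base windows recur elsewhere, the 0 sets no limit. A further 5 V pseudogenes were counted. Trbv24 had 10 to 52 counts per library, and Trbv12-3, Trbv22, Trbv25 and Trbv6 had at most 5. In each comparison 38 of the 53 segments passed the filter on low counts: 20 V, 2 D, 14 J and 2 C segments.

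The control IEL libraries did not share 1 V profile. Trbv16 made up 22.5% (95% Wilson interval 21.4 to 23.6%) of V counts in replicate 1, 21.8% (20.6 to 22.9%) in replicate 2 and 34.5% (33.5 to 35.6%) in replicate 3. Trbv13-2 made up 15.2% and 15.4% in replicates 1 and 2, against 6.41% in replicate 3, and Trbv14 made up 6.48% and 5.93%, against 0.947%. Replicates 1 and 2 were thus alike and replicate 3 stood apart, above them for Trbv16 and below them for Trbv13-2 and Trbv14. These intervals, like all intervals and limits given here, cover counting error only.

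The same split ran in opposite directions within the Trbv13 family. Trbv13-1 made up 3.51%, 3.47% and 5.83% of V counts in control IEL replicates 1, 2 and 3, and Trbv13-3 made up 3.19%, 2.27% and 6.11%. Both were highest in replicate 3, where their near copy Trbv13-2 was lowest. Trbv1 made up 3.94%, 3.81% and 8.31%, and Trbv26 0.504%, 0.487% and 1.68%, again highest in replicate 3. Trbv12-2 made up 11.3%, 11.1% and 5.99%, Trbv12-1 7.49%, 8.28% and 4.38%, and Trbv31, the V segment that lies beyond Trbc2 on the minus strand, 2.35%, 2.27% and 0.695%, all lowest in replicate 3.

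**Figure D1:**
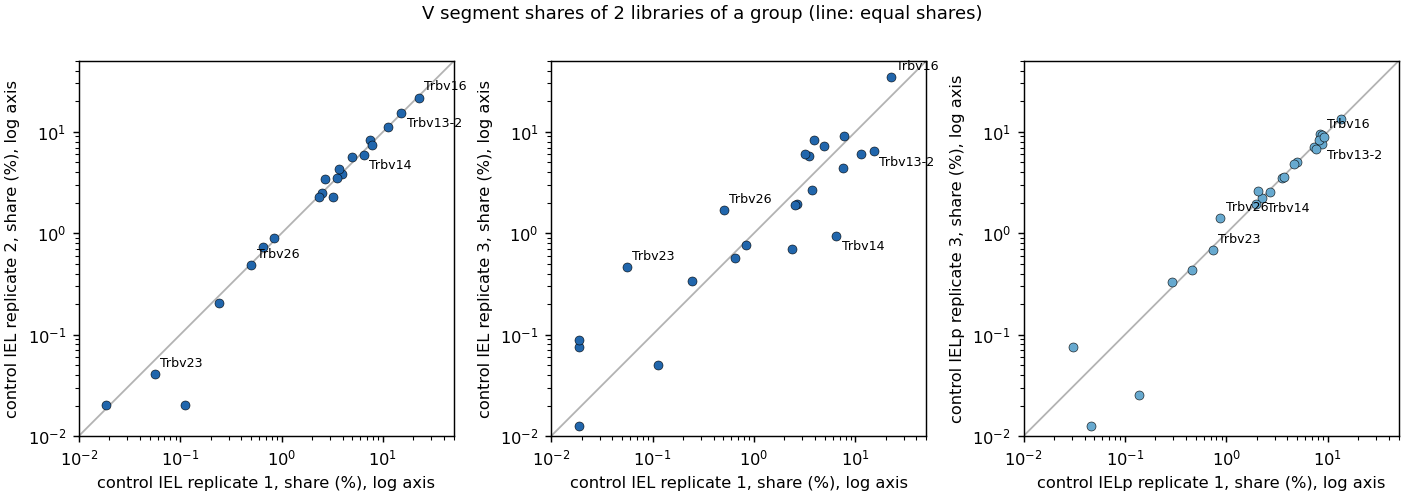
Share of V counts of each V segment in 1 library against another, both axes in percent on log scales, for 2 pairs of control IEL libraries and 1 pair of control IELp libraries; the line marks equal shares, and segments below 0.01% or at 0 are not drawn. Control IEL replicates 1 and 2 lie along the line, replicates 1 and 3 scatter widely around it (Trbv14 at 6.48% and 0.947%), and the control IELp libraries lie along it.

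The distance between profiles put a number on this. It was the share of V counts that would have to change segment to turn 1 profile into the other (total variation distance). Control IEL replicates 1 and 2 were 3.19% apart, where counting error alone gives 2.91%. Replicate 3 was 27.0% from replicate 1 and 28.5% from replicate 2. Within the other groups any pair was 2.55% to 5.04% apart. Over all genes, replicates 1 and 2 differed beyond counting error (chi-square per degree of freedom 4.30, against 1.32 over the V segments). So did every pair within a group, at 4.30 to 18.2, with replicates 1 and 2 the lowest. The value thus cannot show whether they are independent samples. They were counted as separate libraries, and results are also given with their counts summed to 1 library and without replicate 3. With Trbv16 left out of the profiles, the distances were 3.68% between replicates 1 and 2 and 28.7% and 30.0% between these and replicate 3, so the split did not rest on that segment. The alpha-chain V segments (128 Trav rows) gave the same picture, at 10.03% between replicates 1 and 2 and 47.9% and 49.0% from these to replicate 3, against 9.35% to 11.3% within the other groups.

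Other transcripts moved with control IEL replicate 3. The 11 gut epithelium markers summed to 517, 571 and 698 CPM in replicates 1, 2 and 3, with Krt8 at 1.35, 1.54 and 22.6 CPM and Krt19 at 0.369, 0.129 and 22.002 CPM. The 4 regulatory T cell markers summed to 413, 412 and 258 CPM, with Ikzf2 at 350, 344 and 218 CPM and Ctla4 at 50.8, 50.5 and 27.9 CPM. Replicate 3 was the highest for Krt8 and Krt19 and the lowest for Ikzf2 and Ctla4. Cdh1, the epithelial marker with the highest level, did not follow the keratins and was highest in replicate 2. The part of these differences in the V profile was not tested.

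**Figure D2:**
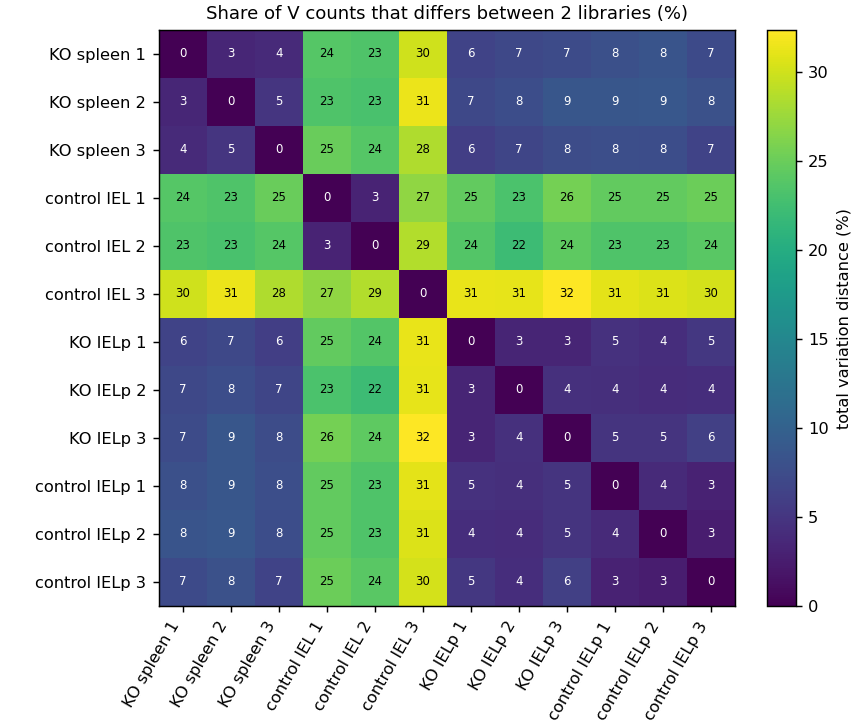
Total variation distance between V segment profiles, in percent, for every pair of the 12 libraries, ordered KO spleen, control IEL, KO IELp, control IELp with replicates 1 to 3 in each. Control IEL rows and columns stand out at 22.2% to 32.3% from all other groups, and within control IEL replicate 3 lies 27.0% and 28.5% from the other libraries, which are 3.19% apart.

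The spread between replicates followed the same line. For each V segment with at least 300 counts in a group, the variance of its share was divided by the variance that counting alone would give. The median ratio was 2.62 in KO spleen (17 segments), 41.5 in control IEL (13 segments), 1.78 in KO IELp (17 segments) and 0.913 in control IELp (16 segments). In control IEL all 13 ratios were above 3, with the highest for Trbv13-2 (151), Trbv16 (149) and Trbv14 (143) and the lowest for Trbv2 (3.15). Above 3 were 6 of 17 segments in KO spleen, 4 of 17 in KO IELp and 3 of 16 in control IELp. The median coefficient of variation of segments at 10 CPM or more was 29.9% in control IEL, against 7.67% for all genes at that level. It was 4.82% against 6.90% in KO spleen, 6.27% against 5.95% in KO IELp and 12.8% against 7.31% in control IELp.

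KO spleen, KO IELp and control IELp each spread their V counts over many segments, and control IEL over fewer. The effective number of V segments, the exponential of the Shannon entropy of the shares, was 14.8 ± 0.208 in KO spleen, 11.3 ± 0.951 in control IEL, 15.2 ± 0.0999 in KO IELp and 15.3 ± 0.0824 in control IELp (SD, n = 3 each). Control IEL replicates 1, 2 and 3 stood at 11.9, 11.9 and 10.2, below every library of the other groups. Counting the most used segments until 50% of V counts were reached took 5 segments in KO spleen, 3 to 4 in control IEL, 5 to 6 in KO IELp and 6 in control IELp. The difference in effective number was -3.97 between control IEL and control IELp and 3.52 between KO spleen and control IEL, with a two-sided exact permutation p of 0.1 for each, the smallest that 3 against 3 libraries allow. In all, 13 such measures and the shares of 35 segments were tested in each of 4 comparisons, so none could pass 0.05 after correction. Without Trbv16 the effective number was 14.0 ± 0.210 in KO spleen, 12.4 ± 0.493 in control IEL, 14.2 ± 0.0784 in KO IELp and 14.4 ± 0.1003 in control IELp (SD, n = 3 each), and control IEL remained below the other groups.

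**Figure D3:**
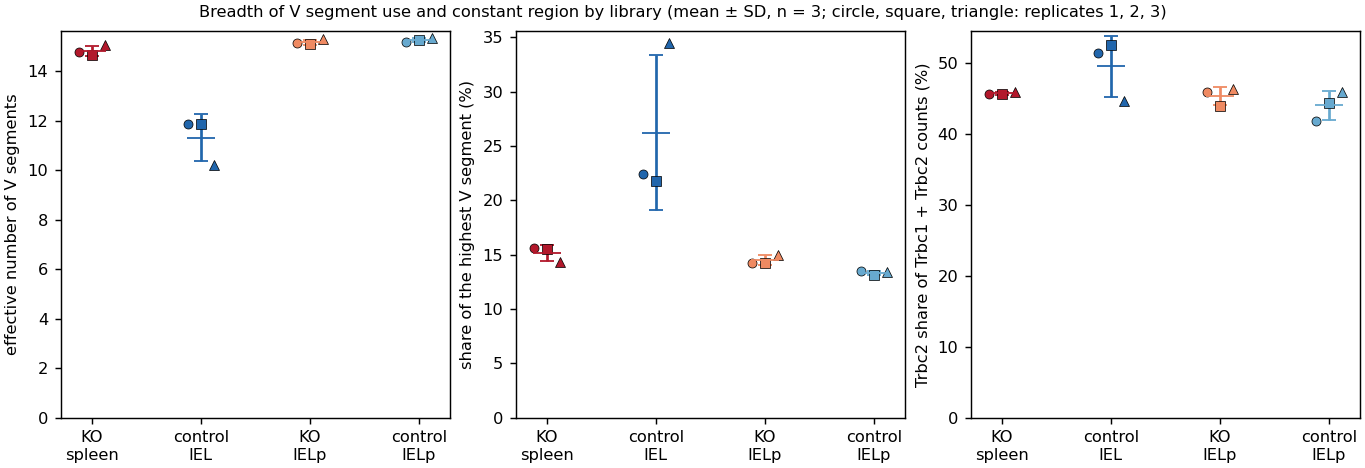
Effective number of V segments, share of V counts of the segment with most counts (percent) and Trbc2 share of Trbc1 and Trbc2 counts (percent), for KO spleen, control IEL, KO IELp and control IELp from left to right; points are libraries, and bars are means with SD (n = 3). Control IEL is lowest in effective number (11.9, 11.9 and 10.2) and highest in the leading share, and its Trbc2 shares of 51.4%, 52.6% and 44.6% straddle those of the other groups.

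The leading segments differed between control IEL and the rest. Corrected for exon length, Trbv16 held 26.0% in control IEL, against 10.4% in KO spleen, 8.90% in KO IELp and 9.20% in control IELp (means of 3). On the same scale Trbv12-2 held 15.6% in KO spleen, 9.67% in control IEL, 15.1% in KO IELp and 13.9% in control IELp, and Trbv13-2 held 8.98%, 14.2%, 10.6% and 9.67% in these groups. Length-corrected, Trbv16 was thus above Trbv12-2 in control IEL and below it in the other groups.

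**Figure D4:**
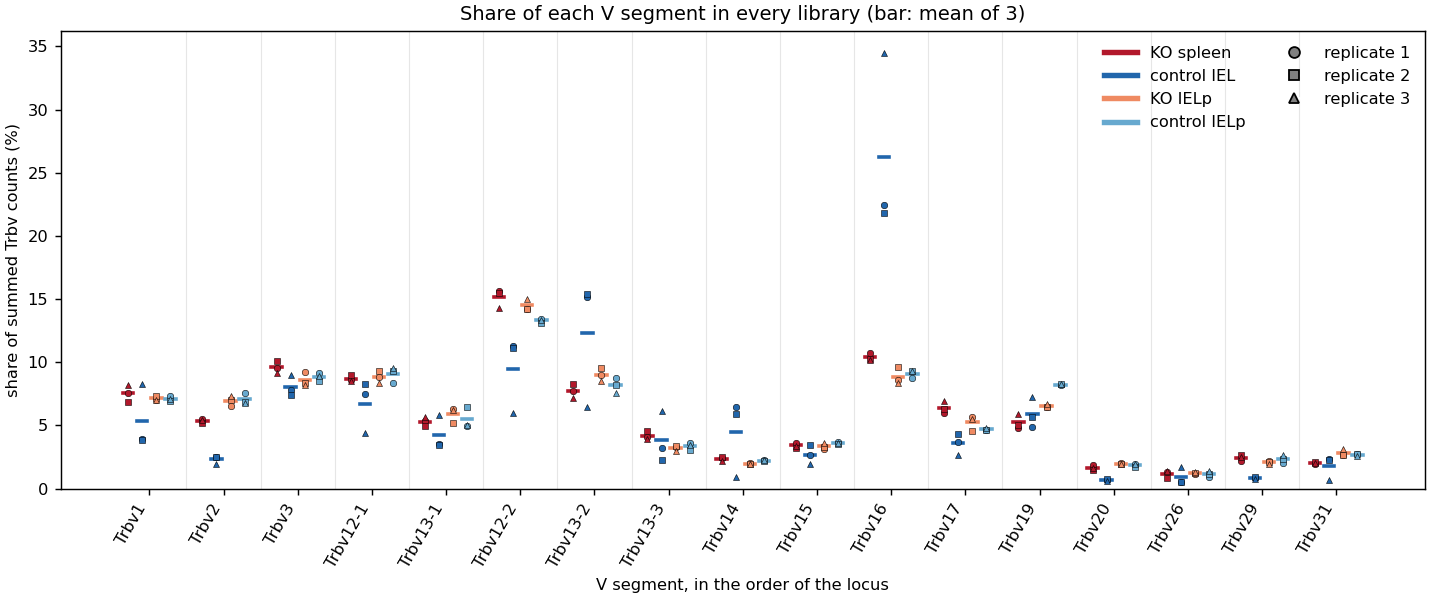
Share of V counts (percent) of 17 V segments in the order of the locus, for KO spleen, control IEL, KO IELp and control IELp from left to right within each segment; bars are means of 3 libraries, and circles, squares and triangles are replicates 1, 2 and 3. Trbv16 stands at 22.5%, 21.8% and 34.5% in control IEL and at 8.35% to 10.7% in all other libraries, and the triangle of control IEL is set apart from its circle and square in most segments.

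Between LRF-deficient and control precursors no beta segment passed the test. In share, the groups did not overlap for 3 of the 35 V segments, Trbv19, Trbv12-2 and Trbv14, where 8 of the 35 had no count. In CPM the groups did not overlap for 2 of the 20 V segments tested, against 29.7% of all genes tested. Some overlapping segments differed by more than Trbv14, such as Trbv13-2 at 0.858 points. Trbv19 (Vβ6) made up 6.46%, 6.46% and 6.70% of V counts in KO IELp, against 8.20%, 8.25% and 8.23% in control IELp, a difference of -1.69 percentage points. Trbv12-2 made up 14.2%, 14.2% and 15.0% in KO IELp, against 13.5%, 13.1% and 13.4% in control IELp, a difference of 1.17 points. Trbv14 made up 2.02%, 1.90% and 1.94% in KO IELp, against 2.23%, 2.18% and 2.22% in control IELp, a difference of -0.262 points. Each of these had a two-sided exact permutation p of 0.1, the smallest possible. For Trbv16 the groups overlapped, at 8.63%, 9.61% and 8.35% in KO IELp, against 8.71%, 9.31% and 9.26% in control IELp, and so did Trbv13-2, at 8.99%, 9.51% and 8.54%, against 8.72%, 8.20% and 7.55%.

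In the fit over all genes, none of the 38 segments tested was called higher or lower in KO IELp than in control IELp, where 13.1% of all 14629 genes tested were called (6.48% higher and 6.58% lower). The edgeR test gave 5 segments an unadjusted p under 0.05, and DESeq2 also called none. Leaving out control IELp replicate 3 gave 2 segments called higher, and leaving out control IELp replicate 1 gave 1 called lower. The lowest adjusted p was 0.0784, for Trbv13-2, which averaged 50.01 ± 2.85 CPM in KO IELp and 42.3 ± 3.01 CPM in control IELp (SD, n = 3 each; log2 fold change 0.26, SE 0.09, edgeR). The median log2 fold change was 0.19 over the 38 segments and -0.01 over all genes, and 33 of the 38 values were positive. The libraries of the groups did not overlap for 6 of 38 segments, against 29.7% of all genes. A second fit, in which the summed V counts served as library size so that each segment was tested relative to all V transcript, again called no segment, against 1.67% of all genes higher and 4.91% lower. Trbv19 then had a log2 fold change of -0.33 (SE 0.14, edgeR adjusted p 0.200). This second scale moves the median of all genes by -0.13.

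The V totals of the precursors also overlapped, while measures of breadth were mixed. The summed V level was 555 ± 22.1 CPM in KO IELp and 522 ± 68.9 CPM in control IELp (exact permutation p 0.6, n = 3 each, two-sided). The effective number differed by -0.102 with overlapping groups (exact permutation p 0.3, two-sided). The inverse of the summed squared shares was 12.95 in KO IELp and 13.21 in control IELp, without overlap (exact permutation p 0.1, two-sided). The share of the segment with most counts was 14.5% and 13.3% in these groups, also without overlap (exact permutation p 0.1, two-sided). The V profiles of KO and control IELp libraries were 4.12% to 6.07% apart, where libraries within either group were 2.55% to 4.42% apart.

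Trbv16 was higher in control IEL than in control IELp, and Trbv2, Trbv29 and the Trbv12 segments were lower. Trbv16 made up 22.5%, 21.8% and 34.5% of V counts in control IEL, against 8.71%, 9.31% and 9.26% in control IELp, a difference of 17.1 points. The groups did not overlap (exact permutation p 0.1, two-sided). In CPM, Trbv16 stood at 73.9, 69.0 and 148 in control IEL, against 38.8, 50.4 and 53.7 in control IELp, with a log2 fold change of 1.26 (SE 0.26, edgeR adjusted p 0.00135). Without control IEL replicate 3 the log2 fold change was 0.82 (edgeR adjusted p 6.12e-05), and with replicates 1 and 2 summed to 1 library it was 1.46 (edgeR adjusted p 0.000641). Trbv16 is the Vβ11 segment, known in other strains as a target of endogenous superantigens presented by the class II molecule I-E, which C57BL/6 mice lack.

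Trbv2 (Vβ4) showed the opposite pattern and varied little between libraries. It stood at 8.29, 7.98 and 8.26 CPM in control IEL, against 33.8, 37.0 and 39.1 CPM in control IELp, with a log2 fold change of -1.93 (SE 0.12, edgeR adjusted p 1.51e-07). Its share was 2.52%, 2.52% and 1.92% in control IEL, against 7.59%, 6.83% and 6.75% in control IELp. No library of either group overlapped the other, replicate 3 included. Trbv29 (Vβ7) averaged 2.97 ± 0.300 CPM in control IEL and 12.3 ± 3.06 CPM in control IELp (SD, n = 3 each; log2 fold change -1.81, edgeR adjusted p 4.23e-05). Trbv20 (Vβ15) averaged 2.30 ± 0.147 CPM in control IEL and 9.72 ± 1.30 CPM in control IELp (log2 fold change -1.84, edgeR adjusted p 1.84e-05). These 3 segments had the lowest log2 fold changes among segments that reached 5 CPM in control IELp, and without replicate 3 the values were -1.94 for Trbv2, -1.90 for Trbv29 and -1.88 for Trbv20, all called.

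The Trbv12 segments and Trbv19 also fell. Trbv12-2 stood at 37.2, 35.3 and 25.8 CPM in control IEL, against 59.98, 71.1 and 77.5 CPM in control IELp (log2 fold change -0.86, SE 0.15, edgeR adjusted p 0.0004). Trbv12-1 had a log2 fold change of -0.81 (edgeR adjusted p 0.00143), Trbv19 one of -0.75 (edgeR adjusted p 0.0108) and Trbv17 (Vβ9) one of -0.75 (edgeR adjusted p 0.00092). Trbv31 (Vβ14) had a log2 fold change of -0.99 (edgeR adjusted p 0.0117), with the low value of replicate 3 part of it: without that library it was -0.66 (edgeR adjusted p 0.0053). Among rare segments, Trbv23 had 3, 2 and 37 counts and Trbv30 had 6, 1 and 4 counts in control IEL, against 48 to 78 and 19 to 26 counts in control IELp. Trbv23 was thus near 0 in 2 control IEL libraries and well above that in replicate 3, and Trbv30 was low in all 3.

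Counted over the 38 segments tested, 1 was called higher and 15 lower in control IEL, against 31.9% of all genes higher and 32.9% lower (64.8% either way). The 15 lower ones were 11 V segments, Trbd2, Trbj1-1 and both C segments. The median log2 fold change was -0.49 over the segments and -0.01 over all genes, and 19 of 38 segments did not overlap between groups, against 70.9% of all genes. Without control IEL replicate 3, 3 segments were called higher (Trbv13-2, Trbv14 and Trbv16) and 22 lower. Trbv13-2 then had a log2 fold change of 0.46 (edgeR adjusted p 0.00167) and Trbv14 one of 1.03 (edgeR adjusted p 7.23e-05). With all libraries they had 0.22 (edgeR adjusted p 0.335) and 0.57 (edgeR adjusted p 0.276). Trbv1 (Vβ2), Trbv13-1 and Trbv13-3 were called lower without replicate 3, at -1.33, -1.12 and -0.75, and not with it. With replicates 1 and 2 summed, 1 segment was called higher and 11 lower.

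The V total of control IEL was lower too. Summed V counts were 359 ± 62.1 CPM in control IEL and 522 ± 68.9 CPM in control IELp, without overlap (exact permutation p 0.1, n = 3 each, two-sided). Relative to summed V counts, 3 segments were called higher (Trbv16, Trbv14 and Trbv13-2) and 6 lower (Trbv2, Trbv20, Trbv23, Trbv29, Trbv30 and Trbd2), against 36.6% of all genes higher and 17.3% lower on this scale, which moves the median of all genes by 0.31. For Trbv14 and Trbv13-2 control IEL replicate 3 went the other way. Its shares were 0.947% and 6.41%, against 2.18% to 2.23% and 7.55% to 8.72% in control IELp. Trbv16 then had a log2 fold change of 1.53 (SE 0.22, edgeR adjusted p 3.21e-07) and Trbv2 one of -1.61 (SE 0.24, edgeR adjusted p 4.19e-07). Trbv12-2, at -0.50 (edgeR adjusted p 0.0652), was not called on it. Transcripts listed as gut epithelium markers also differed in this contrast. The 11 summed to 517 to 698 CPM in control IEL, against 67.1 to 75.3 CPM in control IELp, with Krt8, Krt19, Fabp1 and Phgr1 at 0 in every control IELp library. Most of the control IEL sum was Cdh1, at 369, 421 and 400 CPM, and Epcam, at 123, 127 and 189 CPM. The 7 gamma-delta T cell markers summed to 2326 to 2508 CPM in control IEL, against 343 to 402 CPM in control IELp, while their defining constant segment Trdc stood at 6.76, 6.76 and 12.4 CPM in control IEL, against a mean of 20.9 CPM in control IELp. Of these 7 markers, 3 were called higher and 4 lower (median log2 fold change -1.03), where 31.9% of all genes were called higher and 32.9% lower. The part of the epithelial and gamma-delta markers in the V shares was not tested.

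**Figure D5:**
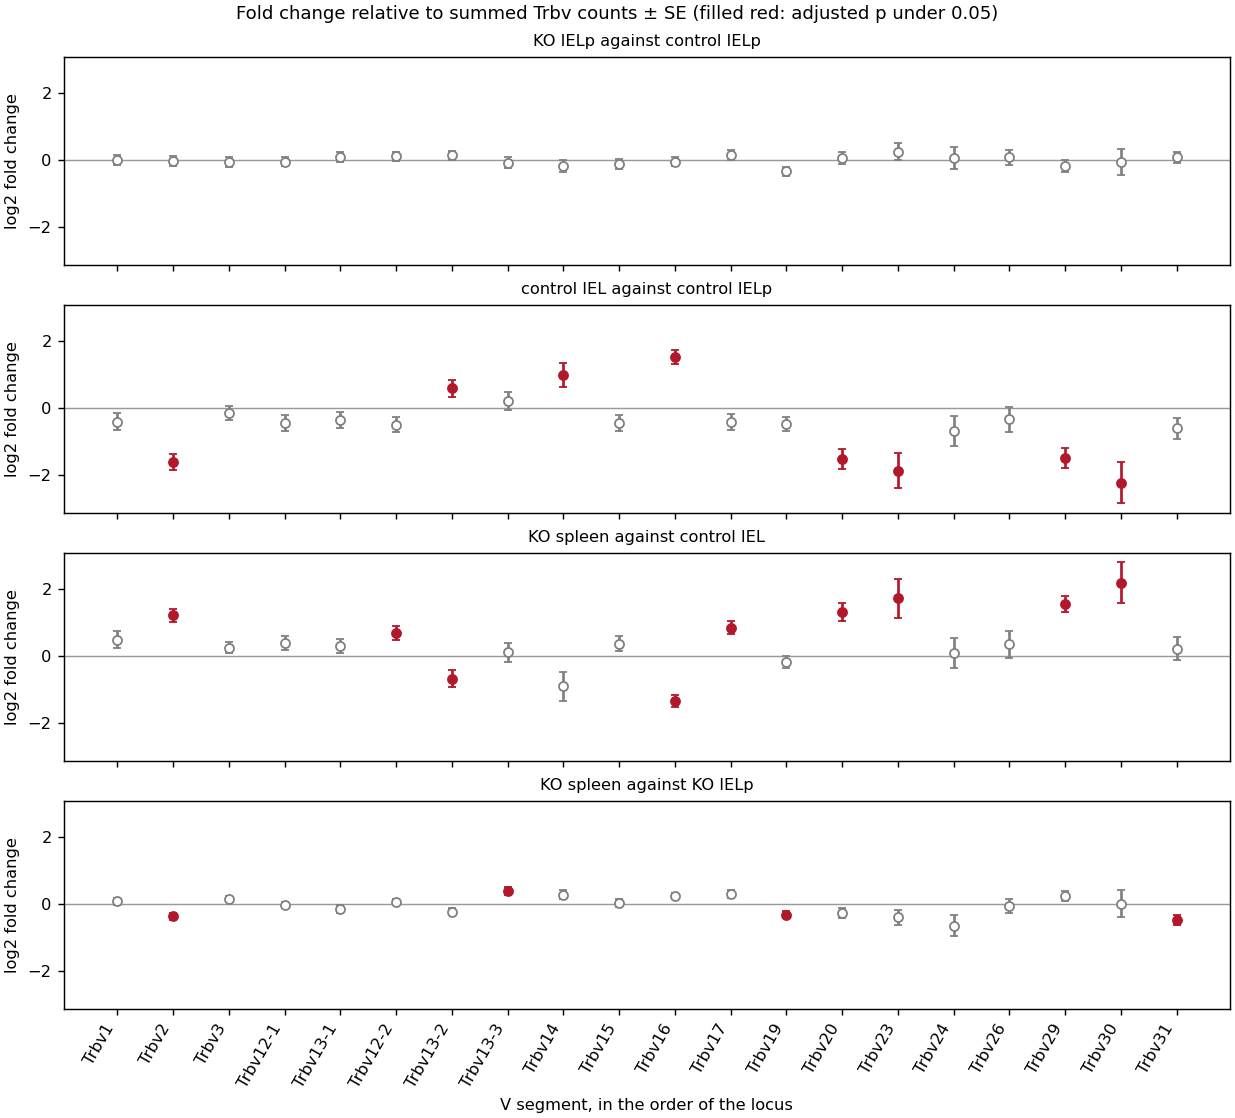
Log2 fold change relative to summed V counts, with SE, of the 20 V segments tested in each of 4 comparisons (6 libraries each); filled red points have an edgeR adjusted p under 0.05. Trbv16 stands at 1.53 in control IEL against control IELp and at -1.34 in KO spleen against control IEL, Trbv2 at -1.61 and 1.22, and no point is filled in KO IELp against control IELp.

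In KO splenic CD8αα cells Trbv16 was lower than in control IEL and 17 other segments were higher; the control IEL libraries are those of the preceding contrast. Trbv16 stood at 59.1, 56.2 and 59.9 CPM in KO spleen, against 73.9, 69.0 and 148 CPM in control IEL, lower in every KO spleen library (log2 fold change -0.86, SE 0.25, edgeR adjusted p 0.0131). Its share was 10.7%, 10.2% and 10.2% in KO spleen, against 22.5%, 21.8% and 34.5% in control IEL. Without control IEL replicate 3 the log2 fold change was -0.40 (edgeR adjusted p 0.00168), and with replicates 1 and 2 summed it was -1.04 (edgeR adjusted p 0.00687).

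Several segments that were low in control IEL were higher in KO spleen. Trbv29 averaged 13.8 ± 1.56 CPM in KO spleen and 2.97 ± 0.300 CPM in control IEL (SD, n = 3 each; log2 fold change 2.09, SE 0.18, edgeR adjusted p 5.03e-06). Trbv2 stood at 30.2, 28.6 and 31.9 CPM in KO spleen, against 8.29, 7.98 and 8.26 CPM in control IEL (log2 fold change 1.76, edgeR adjusted p 6.35e-07). Trbv17 stood at 32.7, 34.5 and 41.0 CPM in KO spleen, against 12.2, 13.7 and 11.6 CPM in control IEL (log2 fold change 1.41, edgeR adjusted p 7.6e-06). Trbv12-2 averaged 85.0 ± 0.726 CPM in KO spleen and 32.7 ± 6.14 CPM in control IEL (log2 fold change 1.26, edgeR adjusted p 1.78e-05). None of these groups overlapped, which was part of the rule for naming called segments.

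Of the 38 segments, 17 were called higher and 1, Trbv16, lower in KO spleen, against 29.1% of all genes higher and 29.2% lower (58.2% either way). The 17 were 13 V segments, Trbd2, Trbj2-1 and both C segments. Groups did not overlap for 19 of 38 segments, against 66.2% of all genes, and the median log2 fold change was 0.57. The summed V level was 563 ± 23.0 CPM in KO spleen and 359 ± 62.1 CPM in control IEL, without overlap (exact permutation p 0.1, n = 3 each, two-sided). Relative to summed V counts, 8 segments were called higher and 4 lower (Trbv16, Trbv13-2, Trbj1-5 and Trbj1-7), against 11.6% of all genes higher and 51.2% lower on that scale, which moves the median of all genes by -0.54. For Trbv13-2 control IEL replicate 3 went the other way, with a share of 6.41%, against 7.13% to 8.26% in KO spleen. Without control IEL replicate 3, 21 were called higher and 3 lower, and with replicates 1 and 2 summed 13 higher and 1 lower. B cell transcript was higher in KO spleen, where the 6 B cell markers summed to 1220 to 1257 CPM, nearly all of it Ighm at 1118 to 1158 CPM, against 457 to 654 CPM in control IEL. Gut epithelium markers summed to 13.9 to 16.9 CPM in KO spleen, against 517 to 698 CPM in control IEL. Their part in the segment levels was not tested.

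The V profiles of KO splenic CD8αα cells and KO IELp were 5.99% to 8.67% apart, where pairs within KO spleen were 3.48% to 5.04% apart and pairs within KO IELp 3.29% to 4.42%. Of 20 V segments tested, 8 were called. Trbv13-3 stood at 22.4, 25.1 and 23.2 CPM in KO spleen, against 18.9, 18.1 and 16.4 CPM in KO IELp (log2 fold change 0.52, SE 0.11, edgeR adjusted p 0.00245). Trbv16 stood at 59.1, 56.2 and 59.9 CPM in KO spleen, against 50.04, 51.7 and 45.7 CPM in KO IELp (log2 fold change 0.36, SE 0.08, edgeR adjusted p 0.00264). Neither pair of groups overlapped, which was part of the rule for naming called segments. Trbv17, at 36.1 ± 4.38 CPM in KO spleen and 29.1 ± 4.13 CPM in KO IELp (SD, n = 3 each), had a log2 fold change of 0.42 (edgeR adjusted p 0.0148), and Trbv14 one of 0.40 (edgeR adjusted p 0.0257). Trbv31, at 11.4 ± 0.551 CPM in KO spleen and 15.7 ± 1.44 CPM in KO IELp, had -0.35 (edgeR adjusted p 0.0471), and Trbv2, at 30.2 ± 1.61 CPM in KO spleen and 38.5 ± 1.27 CPM in KO IELp, had -0.24 (edgeR adjusted p 0.0491).

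In all, 6 V segments were called higher and 2 lower in KO spleen than in KO IELp, against 22.6% of all genes higher and 22.4% lower (45.0% either way). No D, J or C segment was called. The other called segments were Trbv3 (Vβ16) at 0.28 and Trbv12-2 at 0.19. Trbv13-3 and Trbv16 kept their call in all 6 fits that left out 1 library, and each of the other 6 lost it in at least 2. Without KO IELp replicate 2 the count of segments called higher was 2, and without KO IELp replicate 3 it was 3. No segment was called lower in any of these fits but that without KO spleen replicate 3. Groups did not overlap for 14 of 38 segments, against 56.4% of all genes. Relative to summed V counts, only Trbv13-3 was called higher (0.39, edgeR adjusted p 0.0175) and Trbv2, Trbv19 and Trbv31 lower, against 15.5% and 29.9% of all genes; this scale moves the median of all genes by -0.13. The effective number differed by -0.344 without overlap (exact permutation p 0.1, n = 3 each, two-sided), and the summed V level by 7.55 CPM with overlap (exact permutation p 0.5, two-sided).

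Whether the CD8αα cells stood apart from the precursors in the same way in both genotypes was tested as an interaction over all 12 libraries. The difference of KO spleen from KO IELp was above that of control IEL from control IELp for 10 of 38 segments tested and below it for 1, Trbv16, against 24.2% and 22.5% of all genes. Without control IEL replicate 3 it was above for 20 segments and below for 3, and without control IELp replicate 1 it was below for none. Relative to summed V counts the counts were 5 and 3.

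Invariant NKT cells, which are TCRβ+, are known in mice to use the Trbv13 segments, Trbv29 and Trbv1. These 5 segments together made up 27.2% ± 0.314 of V counts in KO spleen, 26.6% ± 0.804 in control IEL, 27.3% ± 0.571 in KO IELp and 26.5% ± 0.580 in control IELp (SD, n = 3 each). Their sum was nearly the same in all groups, also in control IEL, where it ran from 25.8% to 27.4% although single members moved apart between libraries. The 6 invariant NKT markers summed to 763 to 789 CPM in KO spleen, 315 to 324 CPM in control IEL, 31.0 to 44.4 CPM in KO IELp and 36.5 to 41.8 CPM in control IELp. The markers did not move as a set in the comparisons with KO spleen. In KO spleen against control IEL 4 of the 6 were tested, with 2 called higher and 1 lower, beside 29.1% and 29.2% of all genes. In KO spleen against KO IELp 4 were tested, again with 2 higher and 1 lower, beside 22.6% and 22.4% of all genes. The calls went 1 way in the other comparisons. In control IEL against control IELp 4 were tested, with 2 higher and 0 lower, beside 31.9% and 32.9% of all genes. In KO IELp against control IELp 5 were tested, with 0 higher and 2 lower, beside 6.48% and 6.58% of all genes.

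The D segments are 12 and 14 bases long, shorter than a read, so their counts come from read pairs that also cover flanking sequence, and they are low. Trbd2 had 56, 44 and 36 counts in KO spleen, 3, 3 and 22 in control IEL, 53, 61 and 52 in KO IELp and 21, 43 and 33 in control IELp. Trbd1 had 40, 39 and 34 counts in KO spleen, 34, 44 and 44 in control IEL, 40, 36 and 50 in KO IELp and 28, 42 and 29 in control IELp. Trbd2 was thus low in control IEL, most of all in replicates 1 and 2, while Trbd1 was not. Trbd2 averaged 0.524 ± 0.581 CPM in control IEL and 2.13 ± 0.606 CPM in control IELp (SD, n = 3 each; log2 fold change -1.73 ± 0.62 SE with an edgeR adjusted p of 0.0290). The call was lost without control IEL replicate 1 or 2 and without control IELp replicate 2 or 3, and without control IEL replicate 3 the log2 fold change was -3.22 (edgeR adjusted p 0.000352). It averaged 2.61 ± 0.247 CPM in KO spleen and 0.524 ± 0.581 CPM in control IEL (log2 fold change 2.13, SE 0.60, edgeR adjusted p 0.0117). Without control IEL replicate 3 this log2 fold change was 3.63 (edgeR adjusted p 0.000139). Between KO IELp and control IELp, the log2 fold change was 0.65 for Trbd2 (edgeR adjusted p 0.180) and 0.21 for Trbd1 (edgeR adjusted p 0.706).

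The J segments, each with 12 to 193 counts per library, had few calls. Summed J level was 53.0 CPM in KO spleen, 47.6 CPM in control IEL, 60.8 CPM in KO IELp and 52.7 CPM in control IELp. It did not overlap between KO spleen and KO IELp (exact permutation p 0.1, two-sided) and overlapped in the other comparisons. In KO spleen against KO IELp 11 of the 14 log2 fold changes were negative and 3 positive, with none called. Relative to summed V counts all 14 were negative (median -0.28), where that scale moves the median of all genes by -0.13. Among the 14 J segments, Trbj1-1 was called lower in control IEL than in control IELp (log2 fold change -0.99, edgeR adjusted p 0.0351), with 14, 13 and 34 counts in control IEL, and Trbj2-1 was called higher in KO spleen than in control IEL (log2 fold change 1.09, edgeR adjusted p 0.0372), where control IEL had 13, 18 and 41 counts. Replicates 1 and 2 were again the low ones. The Trbj1-1 call was lost in every fit that left out 1 library but that without control IEL replicate 3. The Trbj2-1 call was lost without control IEL replicate 1 or 2 and without KO spleen replicate 1 or 3. The Trbj2 cluster made up 33.0% ± 2.76 of J counts in KO spleen, 29.2% ± 2.97 in control IEL, 33.4% ± 3.04 in KO IELp and 29.9% ± 3.46 in control IELp (SD, n = 3 each). All 4 comparisons of this share overlapped, with two-sided exact permutation p from 0.2 to 0.9.

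The constant segments, which every beta transcript carries, fell with the V total. Trbc1 stood at 258, 258 and 397 CPM in control IEL, against 498, 553 and 548 CPM in control IELp (log2 fold change -0.58, SE 0.14, edgeR adjusted p 0.00467). Trbc2 stood at 274, 286 and 320 CPM in control IEL, against 358, 440 and 465 CPM in control IELp (log2 fold change -0.29, SE 0.10, edgeR adjusted p 0.0230). Both were lower in every control IEL library, and the Trbc2 call was lost without control IEL replicate 1 or 2 and without control IELp replicate 2 or 3. In KO spleen Trbc1 averaged 521 ± 7.70 CPM, against 305 ± 80.3 CPM in control IEL (log2 fold change 0.65, edgeR adjusted p 0.00309), and Trbc2 averaged 438 ± 8.88 CPM, against 293 ± 23.9 CPM (log2 fold change 0.46, edgeR adjusted p 0.000217). KO IELp and control IELp did not differ past the threshold in Trbc1 (0.13, edgeR adjusted p 0.171) or Trbc2 (0.20, edgeR adjusted p 0.101), though Trbc2 was called higher in KO IELp without control IELp replicate 3.

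The ratio of summed V counts to summed C counts was 0.587 in KO spleen, 0.6005 in control IEL, 0.530 in KO IELp and 0.546 in control IELp. The ratio was higher in KO spleen than in KO IELp and in control IEL than in control IELp, without overlap (two-sided exact permutation p 0.1, n = 3 each), and overlapped in the other 2 comparisons. The summed C level was 959 ± 16.5 CPM in KO spleen and 1049 ± 48.3 CPM in KO IELp (SD, n = 3 each), without overlap, where the summed V level overlapped. Trbc2 made up 45.7% ± 0.168 of C counts in KO spleen, 49.5% ± 4.31 in control IEL, 45.4% ± 1.26 in KO IELp and 44.0% ± 2.05 in control IELp (SD, n = 3 each). Control IEL replicates 1, 2 and 3 stood at 51.4%, 52.6% and 44.6%, so replicates 1 and 2 lay above every other library and replicate 3 among them. The groups overlapped in all 4 comparisons, with two-sided exact permutation p from 0.2 to 0.9.

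The other chains of the receptor differed in both directions. Of the 6 genes of the receptor complex list (Trac, Cd3d, Cd3e, Cd3g, Cd247 and Ptcra), 5 were tested in control IEL against control IELp, with 3 called higher and 2 lower, where 31.9% of all genes were called higher and 32.9% lower. Cd3g averaged 2290 ± 93.6 CPM in control IEL and 920 ± 60.6 CPM in control IELp (SD, n = 3 each; log2 fold change 1.55, edgeR adjusted p 6.05e-09), and Cd3e, the signalling chain paired with it, had a log2 fold change of 1.35 (edgeR adjusted p 3.67e-08). Trac, the alpha constant segment, had 0.44 (edgeR adjusted p 4.03e-05), Cd3d -0.51 (edgeR adjusted p 0.000113) and Cd247, the zeta chain, -1.10 (edgeR adjusted p 1.23e-07). The beta constant segments, Cd3d and Cd247 were thus lower in control IEL, and the alpha constant segment, Cd3e and Cd3g higher. In KO spleen against control IEL 2 of 5 were called higher and 3 lower, where 58.2% of all genes were called either way. In KO spleen against KO IELp 1 of 6 was called higher and 2 lower, where 45.0% of all genes were called. In KO IELp against control IELp, Cd3d (-0.23, edgeR adjusted p 0.0111) and Cd3g (-0.18, edgeR adjusted p 0.0278) were called lower and none higher, with no gene higher at an unadjusted p under 0.05 and none by DESeq2. Over all genes, 6.58% were called lower and 6.48% higher in this comparison.

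Among 14 genes of V(D)J recombination, transcripts of Rag1 and Rag2, which cut the DNA, and Dntt were at or near 0 in KO spleen and control IEL, while those of the end-binding proteins Xrcc5 and Xrcc6 were not. Xrcc5 averaged 67.8 CPM in KO spleen, 55.6 CPM in control IEL, 98.1 CPM in KO IELp and 106.7 CPM in control IELp. Dntt, which adds untemplated bases at the junction, averaged 0.0496 CPM in KO spleen, 0 in control IEL, 10.54 ± 2.70 CPM in KO IELp and 12.2 ± 3.37 CPM in control IELp (SD, n = 3 each). Rag1 averaged 0.783 CPM in KO IELp and 0.946 CPM in control IELp, and Rag2 0.823 and 1.23 CPM in these groups, and both were at 0 in KO spleen and control IEL. Between KO IELp and control IELp none of the 14 was called by edgeR, where 13.1% of all genes were called. At an unadjusted p under 0.05, 2 were lower and 0 higher, and DESeq2 called 1 lower. In control IEL against control IELp 8 of 14 were called lower and 0 higher (1 higher at an unadjusted p under 0.05, and none by DESeq2), against 32.9% of all genes lower and 31.9% higher. The 8 were Rag1, Rag2, Dntt, Xrcc5, Xrcc6, Nhej1, Hmgb1 and Hmgb2. In KO spleen against control IEL 3 of 11 tested were higher and 3 lower, beside shares over the whole table of 29.1% and 29.2%. In KO spleen against KO IELp 3 of 12 were higher and 5 lower, beside shares over the whole table of 22.6% and 22.4%.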

How the data were processed

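RNA from 40000 sorted cells per sample was amplified (SMARTer Ultra Low Input), made into Nextera XT libraries and read as 76-base pairs, per the labels' protocols. The submitters' processing notes name bcl2fastq 2.17, Trimmomatic, STAR, HTSeq, DESeq2 and mm10; annotation, strand setting and the rule for pairs that cover 2 segments were not given in the sources used here. The authors deposited raw counts per gene and FPM values (reads scaled to 1000000 per library, a kind of CPM), and the counts were used; the deposited FPM values gave back whole reads (within 0.001 reads) and the same calls. Rows that name no gene were left out: alignments that were not unique (13.1% to 18.8% of reads), ambiguous reads (0.669% to 0.751%) and reads outside annotated genes (41.5% to 45.5%). A joined V, D and J read can fall in these.

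CPM are counts scaled to 1000000 gene counts per library. Genes were filtered with filterByExpr, scaled by TMM and tested with edgeR 4.0.16 (quasi-likelihood, Benjamini-Hochberg over all genes) in R 4.3.3, in each comparison on its 6 libraries; shares and totals were compared with two-sided exact permutation tests (scipy 1.17.1). DESeq2 1.42.0, other scalings, no filter, a replicate block, 1 fit of all libraries and leaving out each library were alternatives; summing control IEL replicates 1 and 2 and using the FPM values were added after seeing the data. The edgeR steps were tested on simulated data. Replicate numbers gave no clear pairing of libraries (correlation of same-numbered libraries -0.12 to 0.20). Segments named are the C and D segments, V segments with a mean share of at least 5% in a group, up to 4 called segments with the highest and 4 with the lowest fold change per comparison (groups not overlapping, the higher one at 10 CPM or more), and those with an uneven spread; Trbv15, Trbv20, Trbv23, Trbv24, Trbv30, Trbj1-1, Trbj1-5, Trbj1-7 and Trbj2-1 were named after their values were seen. The segments and gene lists were chosen with earlier results of these data known. Sequences and gene types are from GENCODE M21 (GRCm38), and older segment names from RefSeq.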

Additional observations from a re-analysis of the deposited data

Results flagged for a closer look

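For 11 beta segments the difference between CD8αα cells and thymic precursors was not the same in KO and control mice, by the interaction term of an edgeR fit of all 12 libraries (KO spleen minus KO IELp, less control IEL minus control IELp, on the log2 scale). The genotype goes with the tissue of the CD8αα cells, spleen in KO mice and IEL in control mice, and the 2 cannot be told apart. In this test 24.2% of 15757 genes were called higher and 22.5% lower. The interaction was -0.93 for Trbv16 (adjusted p 0.0207), -0.48 without control IEL replicate 3, and not called without control IELp replicate 1 (adjusted p 0.0609). It was positive for the other 10: 0.52 for Trbc1 (adjusted p 0.0205, and 0.0568 to 0.0637 without KO IELp replicate 3 or control IEL replicate 1 or 2), 0.68 for Trbv3 (adjusted p 0.0158), 0.89 for Trbv12-1, 0.93 for Trbv15, 1.03 for Trbv12-2, 1.14 for Trbv17, 1.67 for Trbv2, 1.67 for Trbv20, 2.15 for Trbv29 and 2.66 for Trbv30 (adjusted p 0.00462). Trbv2 and Trbv29 averaged 30.2 and 13.8 CPM in KO spleen, 8.18 and 2.97 CPM in control IEL, 38.5 and 11.6 CPM in KO IELp, and 36.6 and 12.3 CPM in control IELp. Relative to summed V counts 5 segments were higher and 3 lower, and that scale moves the median of all genes by -0.40.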

How the results depend on the processing

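Of the values recomputed under other settings, 247 of main results and 352 of single segments kept their direction and call or size, while 27 of main results changed call or size and 8 of main results and 8 of single segments changed sign. Relative to summed V counts the called segments were 3 higher and 6 lower in control IEL against control IELp, 8 and 4 in KO spleen against control IEL, 1 higher in KO spleen against KO IELp, and 5 and 3 in the interaction. Without the filter 1 segment was called higher in KO IELp against control IELp. In 1 fit of all 12 libraries, KO spleen against KO IELp had 1 higher and 0 lower. It also had 0 lower with DESeq2, with no filter and with the replicate block, which left calls elsewhere within 1.5 times. The replicate numbers gave no clear pairing. In the 4 comparisons, 0, 2, 1 and 2 of the 3 libraries of the first-named group correlated best with their own number. Leaving out 1 library at a time gave 0 to 2 higher and 0 to 1 lower in KO IELp against control IELp, 1 to 3 and 11 to 22 in control IEL against control IELp, 12 to 21 and 1 to 3 in KO spleen against control IEL, 2 to 6 and 0 to 2 in KO spleen against KO IELp, and 9 to 20 and 0 to 3 in the interaction; in both contrasts with control IEL and in the interaction the highest counts came without control IEL replicate 3. On the same removals some differences changed sign, all between overlapping groups: Trbc2 share in KO spleen minus KO IELp -0.369 to 0.824 points, Trbj2 share -1.62 to 1.36 there and -1.999 to 1.26 in control IEL minus control IELp, summed V level -5.48 to 61.4 CPM in KO IELp minus control IELp and -5.70 to 19.98 in KO spleen minus KO IELp, and in KO IELp minus control IELp the shares of Trbv1 (-0.0991 to 0.115), Trbv12-1 (-0.565 to 0.0143), Trbv16 (-0.604 to 0.0268) and Trbv2 (-0.289 to 0.153), and Trbv12-1 in KO spleen minus KO IELp (-0.393 to 0.0884). Divided by exon length, Trbv1 turned to -0.0406 points in KO IELp minus control IELp. The cause of these changes was not tested. With 3 libraries a group no permutation p can go below 0.1, D and J counts of 3 to 193 leave wide counting error, and control IEL values rest on 2 like libraries and 1 unlike.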
